A study of Mus musculus with 16 samples.

Results

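Mccc1, Mccc2, Auh, Hibch, Hibadh, Aldh6a1, Acadsb, Pcca, Pccb and Mut encode mitochondrial enzymes that carry the carbon skeletons of leucine, valine and isoleucine, the branched-chain amino acids (BCAA), down to intermediates of ketone metabolism and of the tricarboxylic acid cycle. The 10 genes were chosen by name as the distal steps of BCAA and propionate breakdown, out of 22911 genes with a probe that matched a RefSeq symbol. All 10 matched, Mut under its current symbol Mmut, and the signal of each was well above background on each of the 16 arrays, so that no filter on dim signal removed any.

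The arrays measured total RNA of whole brown adipose tissue (BAT) and gonadal white adipose tissue (gWAT) from male mice of the strain C57BL/6NCrSlc, with 4 arrays for each depot and genotype. Every mouse carried floxed alleles of Pgam1, the gene of the glycolytic enzyme phosphoglycerate mutase 1. Adipo-Pgam1 KO mice also carried Adipoq-Cre, in which the adiponectin promoter drives Cre recombinase in white and brown adipocytes alike, while littermate controls lacked Cre. The promoter is not known to be active in macrophages or vessels, whose RNA is part of each sample. All mice were 16 weeks old except replicate 4 of the Adipo-Pgam1 KO mice, which was 14 weeks old in both depots. No label says whether arrays of a depot are separate animals, so p-values measure the spread between these arrays.

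Breakdown of BCAA starts with a shared transamination and a shared oxidative decarboxylation, after which each amino acid has a branch of its own. The leucine branch ends in acetyl-CoA and acetoacetate. Valine ends in propionyl-CoA, and isoleucine in acetyl-CoA and propionyl-CoA. Propionyl-CoA carboxylase and methylmalonyl-CoA mutase then turn propionyl-CoA into succinyl-CoA, which enters the tricarboxylic acid cycle. Brown fat is known to oxidise BCAA, and adipocytes raise many of these enzymes as they differentiate.

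Promoter windows reaching from 250 bases before to 50 bases after the transcription start were given by RefSeq (GRCm38.p6) for 9 of the genes, 11 windows in all, and none was at hand for Mut. Searched on both strands were the short motifs AAGGTCA (a nuclear receptor site), TGCGCA (the core of the NRF1 site), CCGGAA (an ETS site) and CACGTG (an E box). TGCGCA was found in the windows of Hibadh and Pccb and in 7.76% of all 32851 windows. CCGGAA was found in the window of Auh and in 14.9% of all windows. CACGTG was found in the window of Mccc2 and in 7.15% of all windows. AAGGTCA was found in none of the 11 windows and in 4.72% of all. No window held more than 1 match, and each is a match of letters only. The 4 windows are shown because they hold a match, and only Hibadh and Pccb share a motif. All 10 genes fell in BAT, so that fall does not set these 4 apart. They are written 5′ to 3′ on the strand of the gene, with the match in capitals.
Hibadh, chr6:52640251-52640550, minus strand, TGCGCA from 22 bases before the start: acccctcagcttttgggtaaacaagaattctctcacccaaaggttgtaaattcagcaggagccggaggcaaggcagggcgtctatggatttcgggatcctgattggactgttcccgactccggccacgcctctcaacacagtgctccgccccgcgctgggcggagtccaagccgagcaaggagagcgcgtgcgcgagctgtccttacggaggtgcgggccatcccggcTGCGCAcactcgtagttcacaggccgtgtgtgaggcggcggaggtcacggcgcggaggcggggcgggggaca
Pccb, chr9:101034835-101035134, minus strand, TGCGCA from 36 bases before the start: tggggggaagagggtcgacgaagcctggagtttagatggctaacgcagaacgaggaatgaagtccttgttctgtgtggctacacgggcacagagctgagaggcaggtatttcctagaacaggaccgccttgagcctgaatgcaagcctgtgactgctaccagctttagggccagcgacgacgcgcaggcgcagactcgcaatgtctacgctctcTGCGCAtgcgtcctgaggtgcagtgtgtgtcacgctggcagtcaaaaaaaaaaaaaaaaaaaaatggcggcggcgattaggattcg
Mccc2, chr13:100015590-100015889, minus strand, CACGTG from 9 bases before the start: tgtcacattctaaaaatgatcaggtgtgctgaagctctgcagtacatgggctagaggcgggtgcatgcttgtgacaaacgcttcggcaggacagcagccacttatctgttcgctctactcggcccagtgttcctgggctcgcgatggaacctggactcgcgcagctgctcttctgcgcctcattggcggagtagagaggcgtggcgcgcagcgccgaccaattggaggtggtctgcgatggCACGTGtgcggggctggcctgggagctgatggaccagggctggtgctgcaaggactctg
Auh, chr13:52929628-52929927, minus strand, CCGGAA on the opposite strand from 239 bases before the start: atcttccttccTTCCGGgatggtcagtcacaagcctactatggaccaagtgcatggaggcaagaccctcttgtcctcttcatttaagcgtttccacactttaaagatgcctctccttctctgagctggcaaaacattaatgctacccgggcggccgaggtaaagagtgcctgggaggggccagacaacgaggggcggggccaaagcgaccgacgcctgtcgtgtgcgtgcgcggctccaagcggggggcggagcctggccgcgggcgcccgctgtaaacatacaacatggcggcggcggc

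The level of a gene is given here as log2 of the signal of its brightest probe over the 75th percentile of its array, and differences are differences of that log2 level. That percentile was 401.3 to 451.3 signal units in BAT controls and 570.3 to 916.2 elsewhere, and 49.99% to 62.2% of probes were well above background. The depots carried their labels' markers: the thermogenic uncoupling protein Ucp1 was well above background on every BAT array and on none of the gWAT control arrays, and the 4 mesothelial markers Msln, Upk3b, Krt19 and Wt1 were above background on every gWAT array and on no BAT control array. On BAT arrays of Adipo-Pgam1 KO mice, Msln, Upk3b and Krt19 were each above background on at least 1 array but not on all 4, and Wt1 on none. Pgam1 itself fell in BAT of Adipo-Pgam1 KO mice, from 7.94 ± 0.10 to 6.20 ± 0.17 (SD, n = 4). In gWAT it went the other way, from 5.36 ± 0.29 in controls to 6.31 ± 0.25 (SD, n = 4) in the arrays that carry the Adipo-Pgam1 KO label, here called the KO-labelled gWAT arrays. The other probe of Pgam1 moved likewise, by -1.65 in BAT and by 1.02 in gWAT, so that both probes went opposite ways in the depots. The deleted exons are not named in the sources used here, so it is not known whether the probes lie in them. Why Pgam1 was higher in these gWAT arrays was not tested, and each gWAT direction below rests on the label. A difference was called when limma's p, adjusted by the Benjamini-Hochberg method over all genes tested, was under 0.05.

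All 10 genes fell in BAT of Adipo-Pgam1 KO mice, to between 0.251 and 0.530 of the control level. The median difference of the 10 was -1.74 on the log2 scale, against -0.081 over all 14270 genes tested. Lower calls made up 33.9% of all genes tested, and groups without overlap were seen in 57.1% of all genes tested and in all of the 10. Under spike-in scaling Mccc1 missed the threshold, at -0.37 (limma adjusted p = 0.0517), and the other 9 stayed past it. The 10 differences lay between the 1.98th and the 13.8th percentile of all genes.

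**Figure D1:**
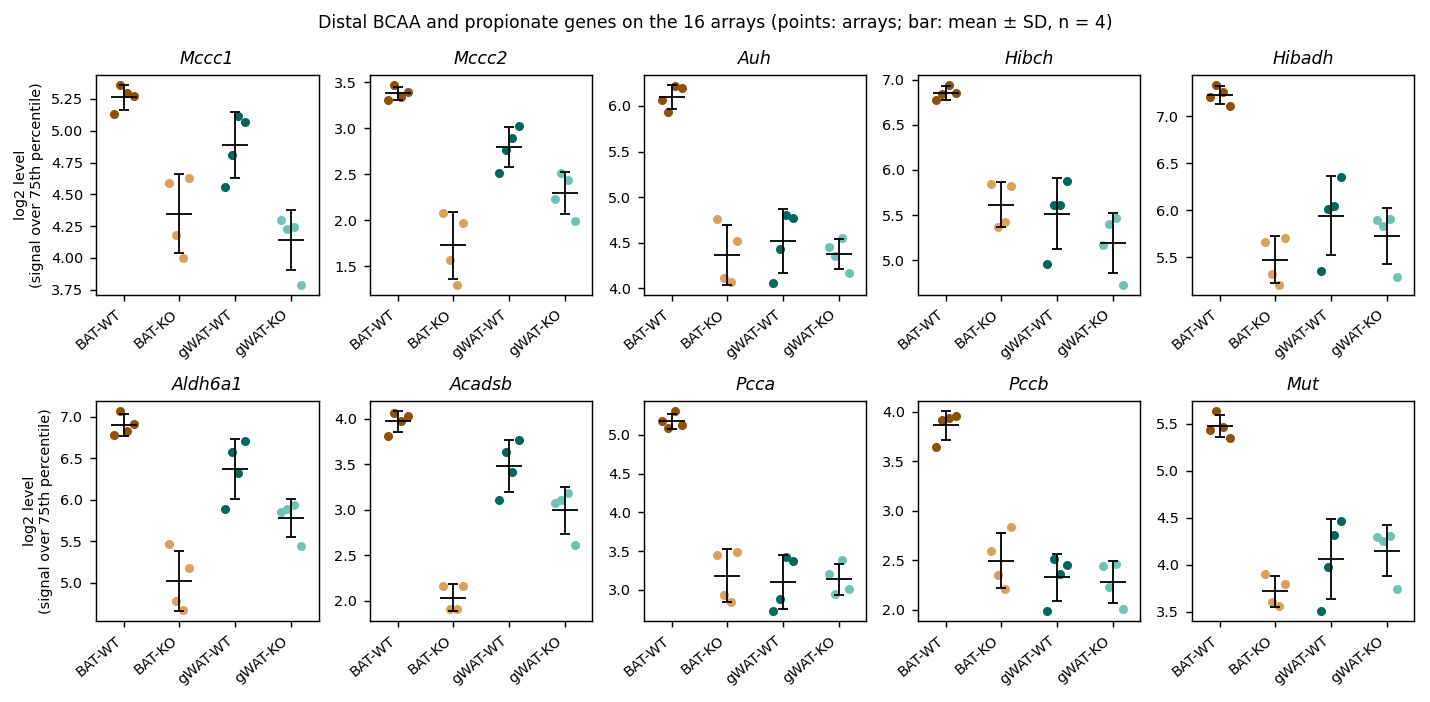
Log2 level (signal over the 75th percentile of the array) of the 10 genes on the 16 arrays, 1 panel for each gene with its own axis range; points are arrays, and the bar is the mean ± SD (n = 4). In every panel the 4 BAT control arrays lie above all other arrays of BAT, while gWAT control arrays and KO-labelled gWAT arrays overlap in 9 panels.

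Of the leucine branch, Mccc1 encodes the biotin-carrying subunit of 3-methylcrotonyl-CoA carboxylase. Its log2 level was 5.13, 5.36, 5.29 and 5.27 in the BAT controls and 4.59, 4.18, 3.997 and 4.63 in Adipo-Pgam1 KO mice. The groups were apart, replicates 1 and 4 of the KO mice lying nearest to the controls. The difference of -0.92 (standard error 0.16, limma adjusted p = 9.70e-04) was the smallest of the 10. Mccc2 encodes the other subunit, which carries the carboxyl transfer. It stood at 3.30, 3.47, 3.34 and 3.39 in BAT controls and at 2.08, 1.57, 1.30 and 1.97 in Adipo-Pgam1 KO mice. The KO arrays spread more than the controls, and the level fell by 1.65 (standard error 0.17, limma adjusted p = 7.10e-05). The pair thus did not change equally on these probes: the within-array difference between the probe of Mccc1 and that of Mccc2 rose by 0.73, with no overlap between the groups, a comparison chosen after the values were seen and not tested. Auh encodes 3-methylglutaconyl-CoA hydratase, the next enzyme of the branch, which also binds AU-rich RNA. Its level was 6.06, 5.93, 6.22 and 6.20 in BAT controls and 4.75, 4.12, 4.07 and 4.51 in Adipo-Pgam1 KO mice. It fell by 1.74 (standard error 0.17, limma adjusted p = 4.76e-05), to 0.300 of the control level.

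Of the valine branch, Hibch encodes 3-hydroxyisobutyryl-CoA hydrolase, which frees 3-hydroxyisobutyrate, an intermediate that can leave the cell. Its log2 level was 6.77, 6.84, 6.95 and 6.85 in BAT controls and 5.84, 5.37, 5.42 and 5.82 in Adipo-Pgam1 KO mice. It fell by 1.24 (standard error 0.13, limma adjusted p = 8.20e-05). Hibadh encodes the dehydrogenase that oxidises 3-hydroxyisobutyrate. It stood at 7.20, 7.33, 7.25 and 7.11 in BAT controls and at 5.66, 5.32, 5.21 and 5.71 in Adipo-Pgam1 KO mice. This fall of 1.75 (standard error 0.13, limma adjusted p = 1.93e-05) was larger than that of Hibch, the enzyme before it, although that contrast between genes was not tested. Aldh6a1 encodes methylmalonate semialdehyde dehydrogenase, which makes propionyl-CoA. Its level was 6.77, 7.07, 6.83 and 6.92 in BAT controls and 5.46, 4.78, 4.67 and 5.18 in Adipo-Pgam1 KO mice. It fell by 1.87 (standard error 0.18, limma adjusted p = 4.71e-05).

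Of the isoleucine branch, Acadsb encodes the short/branched chain acyl-CoA dehydrogenase, the first enzyme particular to that amino acid. Its log2 level was 3.81, 4.07, 3.98 and 4.04 in BAT controls and 2.17, 1.91, 1.91 and 2.16 in Adipo-Pgam1 KO mice. The KO arrays lay close together, from 1.91 to 2.17, and the level fell by 1.94 (standard error 0.11, limma adjusted p = 6.53e-06), to 0.261 of the control level.

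Of the propionate steps, Pcca encodes the biotin-carrying subunit of propionyl-CoA carboxylase. Its log2 level was 5.17, 5.08, 5.31 and 5.13 in BAT controls and 3.45, 2.94, 2.84 and 3.49 in Adipo-Pgam1 KO mice. The fall of 1.99 (standard error 0.17, limma adjusted p = 2.66e-05), to 0.251 of the control level, was the largest of the 10. Pccb encodes the other subunit of that enzyme. It stood at 3.65, 3.92, 3.94 and 3.95 in BAT controls and at 2.59, 2.36, 2.21 and 2.83 in Adipo-Pgam1 KO mice. It fell by 1.37 (standard error 0.15, limma adjusted p = 9.55e-05). Here the within-array difference between the probe of Pcca and that of Pccb fell by 0.63, again without overlap, and again chosen after the values were seen and not tested. Mut encodes methylmalonyl-CoA mutase, which depends on adenosylcobalamin and closes the route to succinyl-CoA. Its level was 5.44, 5.64, 5.46 and 5.35 in BAT controls and 3.90, 3.603, 3.56 and 3.80 in Adipo-Pgam1 KO mice. It fell by 1.75 (standard error 0.11, limma adjusted p = 1.11e-05).

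In each of these 10 single comparisons the two-sided exact permutation p was 0.0286, the smallest that 4 arrays against 4 allow. Replicate 3 was the lowest of the BAT arrays of Adipo-Pgam1 KO mice in 9 of the 10 genes and in 26.1% of all genes, so the spread within that group was shared between the genes. Of the 4 BAT controls, only replicate 4 lay on the slide of the KO arrays. Within that slide, the mean of the KO arrays less replicate 4 of the controls gave differences between -0.92 (Mccc1) and -2.0 (Acadsb). In that fit all 10 passed the threshold, with the lone control assumed to vary like the other arrays.

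**Figure D2:**
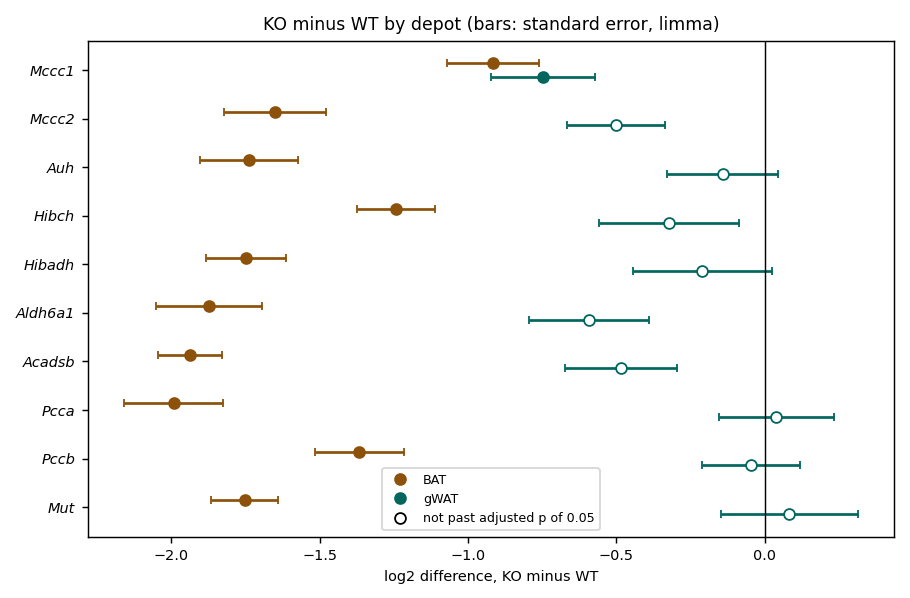
Log2 difference, Adipo-Pgam1 KO minus littermate control, of each gene in BAT and in gWAT; bars are standard errors from limma (n = 4 arrays a group), filled points passed an adjusted p of 0.05 and open points did not. All BAT points lie between -1.99 and -0.92, and in gWAT the points lie between -0.75 and 0.084 with only Mccc1 filled; in gWAT, KO is only the arrays' label.

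The cell content of the BAT samples differed between the genotypes too. All 7 adipocyte markers fell, with a median of -1.06, and their summed level on the linear scale was 2820 to 3127 in controls against 1062 to 1462 in Adipo-Pgam1 KO mice. Adipoq, the gene of adiponectin and the promoter of the Cre, fell by 2.005 (standard error 0.18, limma adjusted p = 3.59e-05). Of the 7 macrophage markers, 6 rose and Itgam did not pass the test, with a median of 2.84 and a summed level of 27.9 to 39.4 in controls against 93.5 to 140.5. Of the 7 brown adipocyte markers, 6 fell, with a median of -1.27. Under quantile normalization 4 of the 7 adipocyte and 4 of the 7 brown adipocyte markers were called lower. Under spike-in scaling 5 of each were, and 1 brown adipocyte marker was called higher. The summed level of the 6 skeletal muscle markers was 0.503 to 1.21 in controls, with Ckm and Myh4 above background on no control array, and 1.54 to 106.1 in Adipo-Pgam1 KO mice, and 2 of 4 tested rose. The endothelial sums overlapped, at 14.3 to 18.5 and 11.3 to 16.6, and 1 of 5 markers, Vwf, fell. Under spike-in scaling Vwf stood at 0.13 (limma adjusted p = 0.491). The T and B lymphocyte sums overlapped too, at 3.33 to 5.71 and 3.02 to 3.85, where 1 of 3 tested, Cd3g, rose and Cd8a, Cd79a and Ms4a1 were above background on no control array. No mesothelial or epididymal marker was bright enough to be tested in BAT. In whole tissue, fewer adipocytes and less of these RNAs per adipocyte cannot be told apart, and the part of these shifts in the falls of the 10 genes was not tested.

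In gWAT, 1 of the 10 genes differed past the threshold. Mccc1 was lower in the KO-labelled arrays, where 7.86% of all 14135 genes tested were called lower and the groups did not overlap in 24.2%. Its log2 level was 4.56, 4.81, 5.12 and 5.07 in gWAT controls and 4.30, 4.23, 4.24 and 3.79 in the KO-labelled arrays, and it fell by 0.75 (standard error 0.18, limma adjusted p = 0.0236). Of the 10 genes, Mccc1 was the only one whose groups did not overlap. This call was not stable: it was lost without control replicate 2 or 3 or without KO-labelled replicate 2 or 3 (adjusted p between 0.05385 and 0.0598). It was also lost under median centring, at -0.63 (adjusted p = 0.126), and under spike-in scaling, at -0.30 (adjusted p = 0.134), and the other probe of Mccc1 changed by -0.39 (adjusted p = 0.14 over probes).

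The other genes of the leucine branch did not pass in gWAT. Mccc2 stood at 2.51, 2.76, 2.89 and 3.03 in controls and at 2.24, 2.52, 2.43 and 1.998 in the KO-labelled arrays, a difference of -0.50 (standard error 0.16, limma adjusted p = 0.0662). Auh stood at 4.06, 4.43, 4.81 and 4.77 in controls and at 4.45, 4.35, 4.55 and 4.16, a difference of -0.14 (standard error 0.19, limma adjusted p = 0.632). For Auh every KO-labelled array lay within the range of the controls.

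Among the valine genes of gWAT, Hibch was at 4.95, 5.61, 5.61 and 5.88 in controls and at 5.17, 5.41, 5.46 and 4.73 in the KO-labelled arrays (difference -0.32, standard error 0.24, limma adjusted p = 0.367). Hibadh was at 5.35, 6.02, 6.04 and 6.35 in controls and at 5.89, 5.83, 5.91 and 5.29 in the KO-labelled arrays (difference -0.21, standard error 0.23, limma adjusted p = 0.564). The groups of both genes overlapped. Aldh6a1 was at 5.89, 6.57, 6.33 and 6.70 in controls and at 5.85, 5.89, 5.94 and 5.44 in the KO-labelled arrays (difference -0.59, standard error 0.20, limma adjusted p = 0.0746). Only control replicate 1 of Aldh6a1 lay among the KO-labelled arrays. The isoleucine gene Acadsb was at 3.11, 3.64, 3.42 and 3.77 in controls and at 3.08, 3.11, 3.18 and 2.62 in the KO-labelled arrays (difference -0.48, standard error 0.19, limma adjusted p = 0.106), with the same control array among the KO-labelled arrays.

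The propionate genes lay closest to no difference in gWAT, though not under median centring or spike-in scaling. Which genes lay closest thus depended on the scaling. Pcca was at 2.73, 2.88, 3.42 and 3.37 in controls and at 3.21, 2.95, 3.39 and 3.01 in the KO-labelled arrays (difference 0.040, standard error 0.19, limma adjusted p = 0.910). Pccb was at 1.99, 2.52, 2.36 and 2.45 in controls and at 2.44, 2.23, 2.46 and 2.005 in the KO-labelled arrays (difference -0.046, standard error 0.16, limma adjusted p = 0.875). Mut was at 3.51, 3.97, 4.31 and 4.46 in controls and at 4.30, 4.25, 4.31 and 3.74 in the KO-labelled arrays (difference 0.084, standard error 0.23, limma adjusted p = 0.831). With standard errors of this size a small change in either direction could not be detected for these 3 genes. Over the 10 genes the median difference was -0.27, against 0.047 over all genes tested, and it was 0.18 under spike-in scaling, where the median of all genes was 0.49. Under that scaling Auh, Hibch, Hibadh and Pccb also changed sign, and Mut was called higher, at 0.53 (limma adjusted p = 0.0275). An unadjusted p under 0.05 was reached by 4 of the 10 and by 4908 of the 14135 genes tested.

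A pair of gWAT arrays lay low for most of the genes. Control replicate 1 was the lowest control for all 10 genes, and replicate 4 of the KO-labelled arrays, from the 14-week-old mouse, was the lowest of its group for 9 of them, against 45.3% and 48.4% of all genes. Without control replicate 1, Mccc1, Mccc2 and Aldh6a1 were called lower, the latter at -0.75 (limma adjusted p = 0.0294). The median of the 10 was -0.46 without that control, the lowest of the 8 values with 1 array left out, and -0.12 was the highest. Of the controls, replicate 4 alone shared a slide with the KO-labelled arrays, and within that slide the 10 differences lay between -0.93 (Mccc1) and -0.17 (Pccb), against a single control array. Adipocyte markers in gWAT summed to 2135 to 3334 in controls and 2022 to 2664 in the KO-labelled arrays, where 1 of the 7, Adipoq, fell, by 0.89 (but by 0.45 under spike-in scaling, with no call there or under median centring). Of 7 macrophage markers 1, Cd68, rose (not called under quantile normalization), and their sums were 68.1 to 95.4 and 71.2 to 186.7. Brown adipocyte markers rose in 4 of 5 tested, with a median of 2.18 and 4 called under each scaling. Skeletal muscle markers summed to 3.17 to 24.9 against 30.2 to 58.1, but none of the 4 tested passed. Acta1 changed by 2.20 (limma adjusted p = 0.0504), Mylpf by -0.094, Tnni2 by 0.073 and Tnnt3 by -0.63. Under quantile normalization and under spike-in scaling 1 of the 4 was called higher. No marker of endothelium, mesothelium or T and B lymphocytes passed the test. No epididymal marker was above background on all 4 arrays of a group. The part of these in the gWAT values was not tested.

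The genotype difference was compared between the depots for each gene with the interaction term of limma over all 16 arrays. In 9 of the 10 genes the difference in gWAT lay above that in BAT past the threshold, where 27.3% of all 14795 genes tested were called in that direction. The term was largest for the propionate genes Pcca (2.03, standard error 0.26, limma adjusted p = 4.45e-05) and Mut (1.84, standard error 0.26, limma adjusted p = 9.36e-05). It was 1.60 for Auh, 1.54 for Hibadh, 1.45 for Acadsb, 1.32 for Pccb, 1.28 for Aldh6a1, 1.15 for Mccc2 and 0.92 for Hibch, the last with an adjusted p of 0.0144. Mccc1 did not pass, at 0.17 (standard error 0.24, limma adjusted p = 0.587). With the slide as a block, which leaves 1 control array a depot beside the KO arrays, 5 genes passed, Auh, Acadsb, Pcca, Pccb and Mut. Under quantile normalization Hibch and Aldh6a1 missed the threshold, and Mccc1 stood at -0.30 (limma adjusted p = 0.165). The direction of the term rests on the gWAT labels.

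Each gene of the 10 except Aldh6a1 and Pccb had a second probe on the array, and every probe passed the background criterion throughout. In BAT the second probes fell as well, by 1.26 (Hibch) to 1.92 (Auh). The largest disagreements in BAT were those of Mut, at -1.75 and -1.34, and Mccc1, at -0.92 and -1.28. In gWAT the second probe of Acadsb passed the threshold over probes (-0.82, standard error 0.23, limma adjusted p = 0.0385) where its brightest did not. For Mccc1 the order was the reverse, so that no gene was called in gWAT by both of its probes. The second probe of Mccc1 also passed for the interaction, at 0.89 (limma adjusted p = 0.00936), where its brightest did not.

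**Figure D3:**
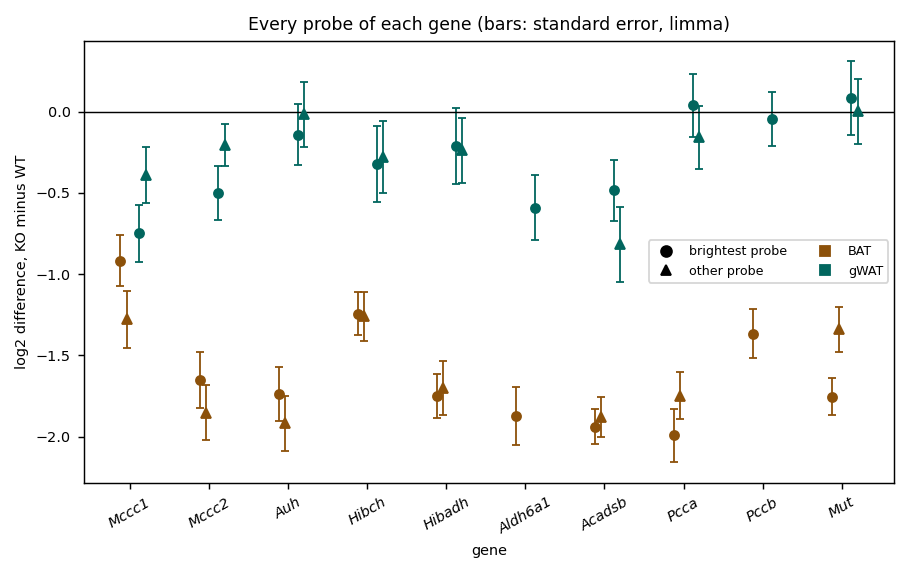
Log2 difference, Adipo-Pgam1 KO minus littermate control, of every probe of the 10 genes in BAT (brown) and gWAT (green); circles are the brightest probe of a gene, triangles its other probe, and bars are standard errors from limma (n = 4 arrays a group). All BAT probes lie at -0.92 or lower and each gWAT probe above the same gene's BAT probes, with the 2 depots closest for the brightest probe of Mccc1; in gWAT, KO is only the arrays' label.

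In littermate controls all 10 genes were higher in BAT than in gWAT, although Mccc1 and Aldh6a1 stood at -0.018 and -0.17 under quantile normalization. The median difference was 1.31, against 0.097 over all 14298 genes tested, and 0.71 under quantile normalization. Genes higher in BAT made up 35.4% of all tested, and groups without overlap were seen in 60.8% of all tested and in all of the 10. This comparison shares its control arrays with both genotype comparisons. The genes fell into steps of different size. Pcca was 2.07 higher in BAT (4.21-fold, standard error 0.18, limma adjusted p = 1.78e-05), Auh 1.59, Pccb 1.53, Mut 1.41, Hibch 1.34 and Hibadh 1.28. The other 4 differed less, with Mccc2 at 0.58, Aldh6a1 at 0.53, Acadsb at 0.49 and Mccc1 at 0.38 (standard error 0.15, limma adjusted p = 0.0469). The last 3 of these calls were lost under quantile normalization, median centring and spike-in scaling alike, where the other 7 genes were called. The slide that held both depots had only replicate 4 of the BAT controls beside gWAT controls 1 to 3, and within it the 3 differences were 0.45 (Mccc1), 0.66 (Aldh6a1) and 0.65 (Acadsb). The calls were also lost when single arrays were left out. The call of Mccc1 was lost without any 1 of the 4 BAT controls or without gWAT control 1 or 2. The call of Aldh6a1 was lost without BAT control 2, 3 or 4 or without gWAT control 3, and so was that of Acadsb, in both cases with an adjusted p of at most 0.0813.

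**Figure D4:**
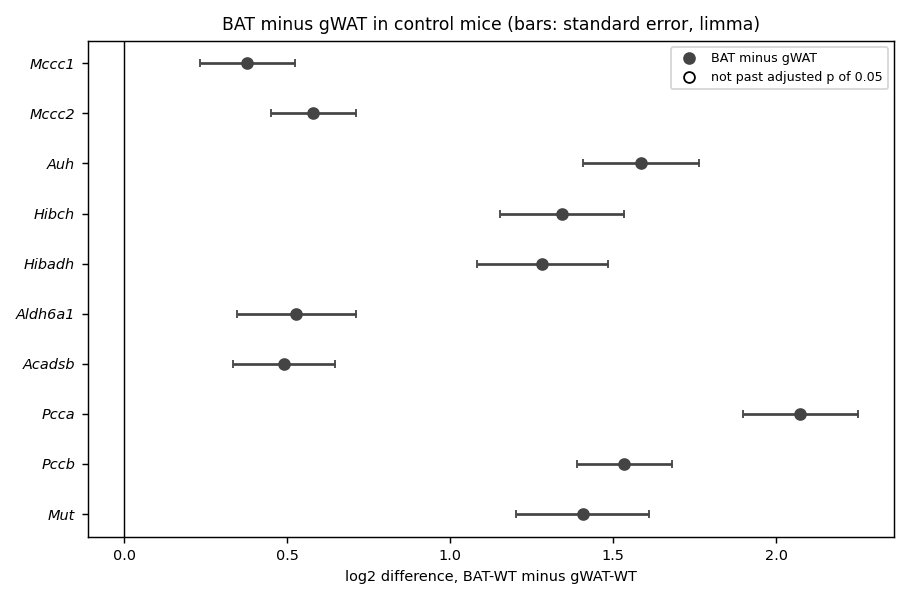
Log2 difference, BAT minus gWAT, of each gene in littermate controls; bars are standard errors from limma (n = 4 arrays a depot), and all points are filled because all passed an adjusted p of 0.05. Pcca lies highest at 2.07, and Mccc1, Acadsb, Aldh6a1 and Mccc2 lie between 0.38 and 0.58, of which Mccc1 and Aldh6a1 turn negative under quantile normalization.

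In Adipo-Pgam1 KO mice the mean in BAT less the mean in the KO-labelled gWAT arrays ran from -0.96 (Acadsb) to 0.42 (Hibch), a description that shares its arrays with the comparisons above. BAT lay below gWAT in the mean for 6 of the 10 genes, and the groups overlapped for 9, all but Acadsb. The depots lay closer than in controls for Mccc1, Auh, Hibch, Hibadh, Pcca, Pccb and Mut. Among these the sign turned for Auh (-0.013), Hibadh (-0.25) and Mut (-0.43). It also turned from 0.58 to -0.57 for Mccc2, a gap of about the same size. For Aldh6a1 it turned from 0.53 to -0.76 and for Acadsb from 0.49 to -0.96, so that the gap grew for both. Under quantile normalization Mccc1 stood at -0.018 in controls with an interaction of -0.30, so its gap did not narrow there. Aldh6a1 stood at -0.17 in controls under that scaling, with an interaction of 0.54, so its sign did not turn there. Pcca, with the widest gap in controls, stood at 3.18 ± 0.34 in BAT and 3.14 ± 0.20 (SD, n = 4) in those gWAT arrays. Aldh6a1 stood at 5.02 ± 0.36 in BAT and 5.78 ± 0.23 (SD, n = 4) in them.

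Among the other steps of the pathway more genes fell than rose in BAT. Of 9 proximal genes, from transamination to the branched-chain keto acid dehydrogenase and its kinase and phosphatase, 7 fell and 1 rose, with a median of -0.80. Bckdha, the E1 alpha subunit of that complex, fell by 1.68 (standard error 0.15, limma adjusted p = 3.37e-05), and Bcat1, the cytosolic transaminase, rose by 2.99 (standard error 0.25, limma adjusted p = 2.73e-05). Of 9 genes of the middle and ketone steps, 8 fell and 1 rose, with a median of -1.53. Ivd, the dehydrogenase just before the carboxylase of the leucine branch, fell by 2.21 (limma adjusted p = 1.38e-05), more than any of the 10, and Abat, which handles GABA and the valine product 3-aminoisobutyrate, rose by 0.39. Of 8 genes that serve methylmalonyl-CoA and the cobalamin cofactor of the mutase, 6 fell and 1 rose, with a median of -0.97. Mmaa, a chaperone of the mutase, fell by 1.62, and Lmbrd1, a lysosomal cobalamin exporter, rose by 0.40. Of 5 other genes of biotin enzymes and biotin supply, 4 fell, led by the acetyl-CoA carboxylase Acacb at -1.62, and Hlcs, which attaches biotin to the carboxylases, stood at 0.034 (adjusted p = 0.897). Under spike-in scaling fewer fell, 4 of the proximal genes (median -0.25), 4 of the cobalamin list with 2 higher (-0.43) and 2 of the biotin genes (-0.36), while 8 of the middle and ketone steps fell there as well (-0.98).

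In gWAT these lists and the 10 genes differed in their counts. Of the proximal genes, 3 were higher in the KO-labelled arrays and none lower, with a median of 0.33, led by Bckdk, the kinase that shuts the dehydrogenase complex, at 0.82. Under quantile normalization 3 of the list were higher and 2 lower, and under median centring 1 was higher and the call of Bckdk was lost (adjusted p = 0.0523). Of the middle steps, 1 was higher and 2 were lower, the lowest being Abat at -1.90. Their median of -0.076 turned to 0.046 under median centring and 0.37 under spike-in scaling. Under quantile normalization none of them was higher and 3 were lower. Under median centring none was higher and 1 was lower, and under spike-in scaling 4 were higher and 2 lower. Of the cobalamin list, Mmab was higher at 1.06 and Mcee, the epimerase between the carboxylase and the mutase, lower at -0.59, with a median of 0.20. The call of Mcee was lost under median centring and under spike-in scaling, where it stood at -0.15. Of the other biotin genes, 2 were higher, led by Acaca, the acetyl-CoA carboxylase of fatty acid synthesis, at 1.54 (adjusted p = 0.0144).

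A list of 11 genes of general mitochondrial content, among them citrate synthase, porins and import subunits, was set beside these. In BAT 8 of the 11 fell, with Timm23 lowest at -0.90. Under quantile normalization 3 fell and 2 rose, and under spike-in scaling 3 fell and 3 rose. The median of the 11 was -0.42, and it was -0.13 under quantile normalization and 0.12 under spike-in scaling. For the 10 distal genes it was -1.74, and -1.44 and -1.20 under those scalings. In gWAT 7 of the 11 were higher in the KO-labelled arrays, with a median of 0.66 and Hspa9 highest at 1.43, while none of the 10 distal genes was called higher and their median was -0.27. Under median centring 3 of the 11 were called higher. Under spike-in scaling both medians rose, to 1.102 and 0.18, and all 11 mitochondrial genes and 1 distal gene, Mut, were called higher. In control mice all 11 were higher in BAT than in gWAT, as all 10 distal genes were. No test was made between the lists.

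**Figure D5:**
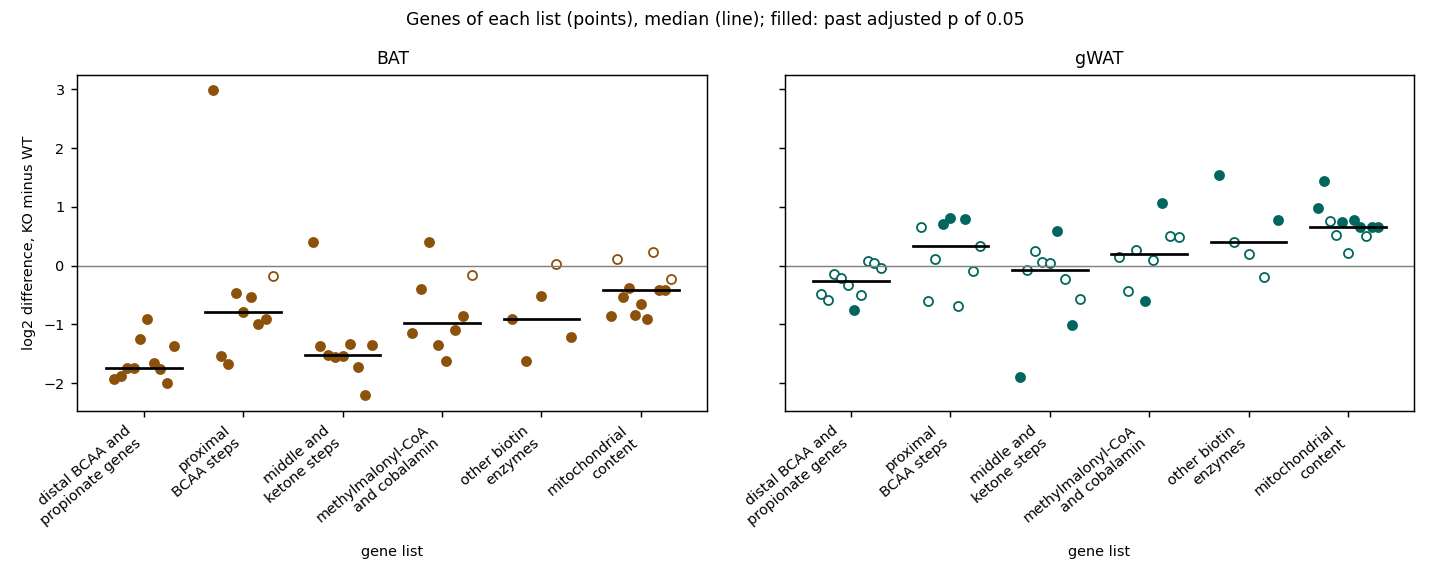
Log2 difference, Adipo-Pgam1 KO minus littermate control, of the 10 distal genes and of each gene of 5 other lists in BAT (left) and gWAT (right); points are genes, lines are list medians, and filled points passed an adjusted p of 0.05 in limma (n = 4 arrays a group). The distal genes lie lowest by median in both depots, at -1.74 and -0.27, and the mitochondrial content genes lie at -0.42 and 0.66 (under spike-in scaling the distal medians are -1.20 and 0.18, and those of mitochondrial content 0.12 and 1.102); in gWAT, KO is only the arrays' label.

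The pattern of each gene over the 16 arrays was compared with those of 13585 genes by the root mean square (RMS) difference of levels centred on their own means. The 10 genes had RMS spreads of 0.49 (Mccc1) to 0.91 (Pcca) about their means. Among themselves, Hibadh and Mut were closest, with an RMS difference of 0.13, followed by Aldh6a1 and Acadsb, also at 0.13. Mccc1 was farthest from the rest, its nearest being Mccc2 at 0.32. Outside the 10, Pccb had the closest neighbour, Selenoo, at 0.10. Auh was nearest to Gatb at 0.13, Hibadh to Proca1 at 0.14, Mut to Aldh4a1 at 0.15, Hibch to Srr at 0.15 and Mccc2 to Acsl1 at 0.17. Agmo was nearest to both Acadsb and Aldh6a1 at 0.18, Gatd3a to Pcca at 0.19 and Pon3 to Mccc1 at 0.20. These values describe likeness over arrays that share depot and genotype, and say nothing of shared function.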

How the data were processed

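RNA was measured on 16 1-colour Agilent arrays (56605 probes). Per the labels, 100 ng of RNA was labelled for each array, while the study's methods name another amount. The authors deposited scanner intensity files (Agilent Feature Extraction 10.7.1.1, design on mm9), with local background subtracted, and a table of intensity values divided by the 75th percentile of each array, on a linear scale. Here log2 of the processed intensity less log2 of that percentile was used. Probes were named by RefSeq accession (91.9% matched), and the brightest probe stood for a gene. Genes well above background on every array of 1 group or more were tested with limma 3.58.1 in R 4.3.3 and Benjamini-Hochberg adjustment over all genes. Each depot was fitted alone, and the interaction on all arrays. The fits were checked on simulated data. The number of arrays limits the precision. Alternatives covered scaling, background, probe choice, filters, slide, pairing, the methods' t-test and each array left out.

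The genes and all lists were chosen with earlier results of these data known. Named were the 10 genes, Pgam1, the largest rise and fall past the threshold of each pathway list in each genotype comparison, and the nearest gene of each of the 10, except for a gene that is not reported here. Adipoq, Cd68, Itgam, Vwf, Cd3g, Hlcs, Acta1, Mylpf, Tnni2 and Tnnt3 were named after their values were seen. Titles share replicate numbers across groups, and no label says that a number marks a shared mouse.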

Additional observations from a re-analysis of the deposited data

Results flagged for a closer look

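In 5 of the 40 groups of 4 arrays that the 10 genes form, the lowest array stood apart from the other 3 by Dixon's criterion. Chance gives about 1 in 20 for a single group. The genes share their arrays, so the 40 groups are not independent, and the count was not tested against chance. Most of the flags are 1 array. Replicate 4 of the KO-labelled gWAT arrays was the lowest of its group for Mccc1 (log2 level 3.79), Hibadh (5.29), Aldh6a1 (5.44) and Mut (3.74), and it comes from the 14-week-old mouse. That array was also the lowest of its group for 48.4% of all genes. Control replicate 1 of BAT was the lowest for Pccb (3.65).

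The genotype difference was not the same in the depots for 9 genes, by the interaction in limma. The difference in the gWAT arrays, by their label, less that in BAT was 1.15 for Mccc2, 1.60 for Auh, 0.92 for Hibch, 1.54 for Hibadh, 1.28 for Aldh6a1, 1.45 for Acadsb, 2.03 for Pcca, 1.32 for Pccb and 1.84 for Mut.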

How the results depend on the processing

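In BAT all 10 genes kept their direction under every alternative run, and 209 of 210 single gene values their side of the threshold. The exception was Mccc1 under spike-in scaling, at -0.37 (adjusted p = 0.0517). Spike-in scaling moved the median of all genes by 0.54 in BAT and 0.44 in gWAT, which leaves the median of the 10 genes relative to all genes as it was by construction, at -1.66 in BAT and -0.31 in gWAT. Under quantile normalization these were -1.46 and -0.51. Under spike-in scaling the share of higher genes among calls went from 44.8% to 79.8% in BAT and from 55.9% to 95.3% in gWAT. Between the depots it went from 54.8% to 42.0%, and in gWAT it was 71.1% under median centring.

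The gWAT count of 1 lower gene depended most on the setting. It was 5 under quantile normalization (3203 genes called in all, either way), 4 with all 16 arrays in 1 fit (4024 genes), and 0 under median centring (1379), spike-in scaling (5092), the mean of detected probes (2531), no filter on dim probes (1134), slide as a fixed block (184) and the replicate block (1083). With 1 array left out it ran from 0 (without control replicate 2 or 3, or KO-labelled replicate 2 or 3) to 3 (without control replicate 1). Spike-in scaling gave 1 higher gene, a median of 0.18, and differences of 0.30 for Auh, 0.12 for Hibch, 0.23 for Hibadh and 0.40 for Pccb. Pcca changed sign to -0.063 under quantile normalization, -0.059 with mean probes and -0.23 with the slide as a block, and ran from -0.085 to 0.15 with 1 array left out. Pccb was 0.076 under median centring and 0.011 under normexp, and -0.16 to 0.047 with 1 array left out. Mut was -0.049 under quantile normalization and -0.32 with the slide as a block, and -0.10 to 0.22 with 1 array left out. The interaction held for 5 genes with the slide as a block. Mccc1 there turned to -0.30 under quantile normalization and -0.0039 with the slide as a block. Between the depots, Mccc1 was -0.018 and Aldh6a1 -0.17 under quantile normalization. The cause was not tested for any of these.

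The numbers were not taken as pairs in the main fits, because no label ties them to a mouse. Between same-numbered control and KO arrays of a depot, which cannot be 1 mouse, the correlations of deviations ran from -0.15 to 0.47. Between same-numbered BAT and gWAT arrays of a genotype, which may be 1 mouse, they ran from -0.16 to 0.31. These values do not settle whether the numbers mark pairs. The replicate block left 10 genes called in BAT, 9 in the interaction and 10 between depots, and 9 in the interaction with the mouse as a block, which was chosen after seeing the data. The methods' t-test called 10 genes in BAT (8421 genes in all), 1 in gWAT (1612) and 8 between depots (8800) after adjustment. Only 4 arrays a group limit what can be detected.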
